A study of Mus musculus with 10 samples.

Results

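The genes described here are 10 transcripts that report on signalling through the kinase ERK: the phosphatases Dusp4, Dusp5 and Dusp6, the Sprouty genes Spry1, Spry2 and Spry4, the Spred genes Spred1 and Spred2, and the ETS-family transcription factors Etv4 and Etv5. They were taken by name from the 24411 genes listed in the deposited table, and all 10 were found there. The samples were lumbar spinal cord of mice that had received paclitaxel (5 libraries) or its vehicle (5 libraries). Paclitaxel is a microtubule-stabilising chemotherapy drug that causes a painful neuropathy, and the lumbar cord is where sensory fibres of the hind limb end. Strain, sex, age, dose and time after treatment are not given in the labels used here, and the labels do not say whether each library came from its own animal, so every p-value below measures the spread between these libraries, which may be technical. In whole tissue, fewer cells of a type and less RNA per cell cannot be told apart.

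ERK is the last kinase of the cascade that runs from receptor tyrosine kinases through RAS, RAF and MEK. Active ERK switches on genes that then restrain it, so the mRNA of these inhibitors is widely read as a measure of recent pathway activity. Dual-specificity phosphatases (DUSP) remove phosphate from ERK itself, Sprouty and SPRED proteins act upstream at the level of RAS and RAF, and ETV4 and ETV5 carry the signal, most often from fibroblast growth factor (FGF) receptors, to DNA. ETS-family proteins bind sites with the core GGAA, and the repressor Capicua (Cic) holds Etv4, Etv5 and other targets down until ERK releases it. In the spinal cord, ERK activity in dorsal horn neurons and glia is a known feature of pain states.

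Promoter sequence was at hand for 7 of the 10 genes, in 8 windows of 250 bases ending just before a transcription start of RefSeq on GRCm38.p6. Dusp4, Spry4 and Etv4 had no entry. Matches were counted on both strands. The motifs were the ETS core GGAA, which the fuller ETS site CGGAAGT contains, the shared start TGAATG of Capicua sites, which the octamer form TGAATGNA contains, the cyclic AMP response element TGACGTCA, and the CArG box bound by serum response factor. TGAATG and the CArG box were added to the search, and the printed windows were chosen, after the sequences had been read. The 3 windows printed below were chosen because they carry the rarer matches, which stand in capitals. They are read 5′ to 3′ on the strand of the gene. Dusp6 is at chr10:99262981-99263230 (plus strand), the inner Etv5 start at chr16:22438369-22438618 (minus strand) and Dusp5 at chr19:53528895-53529144 (plus strand). Capitals mark TGAATG on either strand in Dusp6 and Etv5, and CArG boxes in Dusp5.

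Dusp6: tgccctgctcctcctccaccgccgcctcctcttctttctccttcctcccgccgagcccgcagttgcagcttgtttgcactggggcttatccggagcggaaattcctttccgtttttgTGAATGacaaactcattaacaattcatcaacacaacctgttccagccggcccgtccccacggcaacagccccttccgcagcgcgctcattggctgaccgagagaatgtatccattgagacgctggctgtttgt

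Etv5: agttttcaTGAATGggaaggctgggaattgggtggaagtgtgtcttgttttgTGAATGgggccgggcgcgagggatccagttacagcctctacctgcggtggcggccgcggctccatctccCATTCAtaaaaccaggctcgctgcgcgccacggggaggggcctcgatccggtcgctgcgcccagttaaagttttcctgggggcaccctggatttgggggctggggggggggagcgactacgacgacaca

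Dusp5: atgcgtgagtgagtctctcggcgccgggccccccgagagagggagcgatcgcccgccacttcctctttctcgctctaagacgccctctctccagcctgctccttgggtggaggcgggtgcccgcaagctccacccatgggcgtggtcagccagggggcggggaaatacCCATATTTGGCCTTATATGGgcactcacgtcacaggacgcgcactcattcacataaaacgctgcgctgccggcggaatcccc

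The Dusp6 window held 6 GGAA cores and 1 TGAATG, whose first base lies 133 bases before the start. The inner Etv5 window held TGAATG 3 times, at -242, -198 and -129, where 0.131% of all 32851 mouse windows of this length held 3 or more and 10.9% held at least 1. The first of these copies is followed directly by a GGAA core, with no overlap. The window of the outer Etv5 start held neither GGAA nor TGAATG. Dusp5 also held 1 TGAATG, at -37, which is not in capitals. In the same window, 2 CArG boxes lay end to end from -82 and -72, an arrangement of 2 or more that 0.0183% of windows share, and 1.47% held any. The plain GGAA core was found in 7 of the 8 windows, against 93.4% of all windows, and is common in promoters at large. CGGAAGT, TGAATGNA and TGACGTCA were found in 0 of the 8, against 4.92%, 3.20% and 1.55% of all windows. These matches describe letters only and say nothing of which factor is bound.

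The libraries held from 3676259 to 7791594 gene counts, and 3 counts were worth between 0.385 and 0.816 CPM, the unit of level used here (counts brought to a common library size with TMM factors). After a filter on low counts 13287 genes were tested, 9 of the members among them. Dusp5 did not pass the filter. Neuronal and myelin markers were abundant in all 10 libraries, with 8 neuronal genes summing to between 6082 and 6867 CPM and 7 oligodendrocyte genes to between 20802 and 24699 CPM. The sensory-neuron genes Scn10a, Mrgprd and Trpv1 had at most 3 counts in any library. Paclitaxel replicate 3 stood apart in several lists, and the members, the list medians and the named genes that it moved most are also given without it.

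None of the members passed the test between the groups, and each tested member's 95% interval included 0. In edgeR's quasi-likelihood test with Benjamini-Hochberg adjustment over all genes, 0 of the 9 tested members passed an adjusted p of 0.05, as did 0 of all 13287 genes (0%). At an unadjusted p under 0.05 there were also 0 of 9 members, where 6.07% of all genes lay below that value. DESeq2 and limma-voom called 0 members, and neither put any member at an unadjusted p under 0.05. The CPM ranges of the groups overlapped for all 10 members, where 1.09% of tested genes had groups that did not overlap. By value, 7 of the 9 tested members were lower with paclitaxel (Dusp4, Dusp6, Spry1, Spry2, Spry4, Spred2 and Etv5) and 2 were higher (Spred1 and Etv4). Their median log2 fold change was -0.13, beside -0.003 over all genes tested, of which 50.9% were lower. Without paclitaxel replicate 3 the median was -0.07 and 5 of 9 were lower. That fit put 648 genes at an unadjusted p under 0.05, against 806 with all libraries. The 6.07% is therefore the share with all libraries only.

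**Figure D1:**
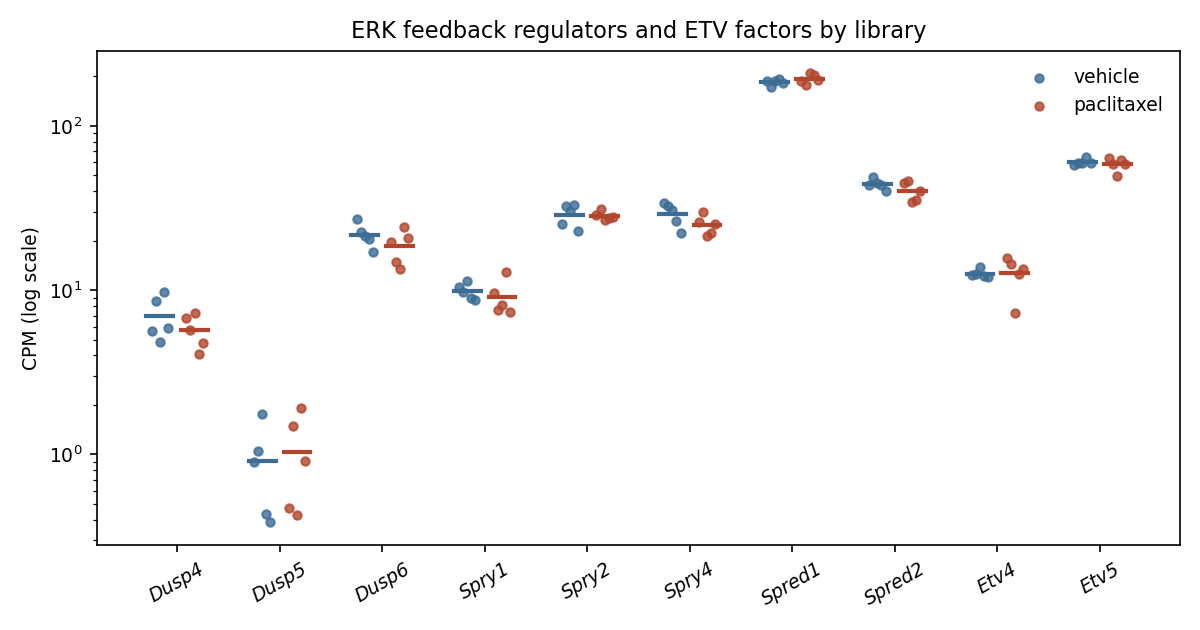
CPM of the 10 genes (log axis) in each library, vehicle in blue and paclitaxel in red, with a bar at each group mean (n = 5 each). Points of both groups overlap for all 10 genes, and the widest spread relative to its mean is that of Dusp5, from 0.385 to 1.91 CPM.

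Levels per transcript length spread widely among the members. Per kilobase of transcript, Spred1 was highest at 50.7 ± 3.02 CPM per kb (SD over all 10 libraries), and it exceeded the next gene, Etv5, in 10 of 10 libraries by a median of 3.33 times. Etv5 (14.9 ± 1.02 CPM per kb), Spred2 (14.8 ± 1.65) and Spry2 (13.7 ± 1.54) followed and could not be ordered: Etv5 was above Spred2 in 6 of 10 libraries, and Spred2 above Spry2 in 7 of 10. Spry2 was above Dusp6 (7.21 ± 1.49 CPM per kb) in 10 of 10. Below it, Dusp6, Spry4 (5.70 ± 0.934) and Etv4 (5.40 ± 0.954) had overlapping ranges, with Spry4 above Etv4 in 6 of 10 libraries. Spry1 stood at 3.84 ± 0.706, Dusp4 at 2.31 ± 0.650 and Dusp5 at 0.393 ± 0.232 CPM per kb, with Dusp4 above Dusp5 in 10 of 10 libraries. In each family 1 member had a range per length above those of its relatives: Dusp6 among the phosphatases, Spry2 among the Sproutys, Spred1 among the Spreds and Etv5 of the ETV pair.

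Among the phosphatases, Dusp6 encodes the cytoplasmic enzyme that acts almost solely on ERK, and its mRNA is the standard readout of FGF signalling. It lies on chromosome 10 from 99263231 to 99267489 (GRCm38). Dusp6 was at 26.9, 22.7, 21.3, 20.6 and 17 CPM in vehicle replicates 1 to 5, and at 19.7, 14.8, 13.4, 24.3 and 20.7 CPM in paclitaxel replicates 1 to 5. All but 1 of the paclitaxel libraries, replicate 4, lay below the vehicle mean, and replicates 2 and 3 lay below every vehicle library. Paclitaxel libraries averaged 18.6 ± 4.47 CPM and vehicle libraries 21.7 ± 3.58 CPM (SD, n = 5 in both). This is a log2 fold change of -0.23 (SE 0.15, 95% interval -0.55 to 0.08; edgeR unadjusted p = 0.140, adjusted p = 0.813). The interval reaches from a fall of 31.7% to a rise of 5.98%. Leaving out paclitaxel replicate 3 brought the log2 fold change to -0.14, as did leaving out vehicle replicate 1. Without paclitaxel replicate 4 it was -0.33 (edgeR unadjusted p = 0.0343, adjusted p = 0.799).

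Dusp4, a nuclear phosphatase of ERK and of other MAP kinases, lies on chromosome 8 from 34807610 to 34819894. Its level was 5.60, 8.56, 4.84, 9.77 and 5.90 CPM in vehicle replicates 1 to 5 and 6.80, 5.73, 7.22, 4.09 and 4.77 CPM in paclitaxel replicates 1 to 5. Vehicle replicates 2 and 4 were high, and the other vehicle libraries lay within the paclitaxel range. The log2 fold change of -0.26 (SE 0.21, 95% interval -0.69 to 0.17) had the largest size among the members and also the widest interval, and did not pass (edgeR adjusted p = 0.841). Over libraries left out in turn it ran from -0.35 without paclitaxel replicate 3 to -0.12 without vehicle replicate 4. Dusp4 rested on 15 to 49 counts per library, and its variation coefficient of 30.5% over the vehicle libraries was the largest among the tested members, beside 17.5% that counting alone gives at its mean count.

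Dusp5, a nuclear phosphatase specific for ERK whose gene serum response factor controls, lies on chromosome 19 from 53529145 to 53541809. It had 2 to 8 counts in each library and 24 counts in each group in total. The levels were 0.469, 1.48, 0.425, 1.91 and 0.917 CPM in paclitaxel replicates 1 to 5 and 0.904, 1.05, 1.76, 0.434 and 0.385 CPM in vehicle replicates 1 to 5. Libraries of both groups stood at or near the value of 3 counts, so no fold change is given, and a difference in Dusp5 was not detectable at this depth.

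The Sprouty genes encode membrane-linked inhibitors that act between receptor tyrosine kinases and RAS or RAF. Spry4, on chromosome 18 from 38586247 to 38601347, had the lowest p of the members. Vehicle replicates 1 to 5 held 33.8, 32.5, 30.8, 26.5 and 22.4 CPM of Spry4, and paclitaxel replicates 1 to 5 held 26, 29.9, 21.4, 22.4 and 25.1 CPM. The 3 highest libraries were vehicle replicates 1, 2 and 3, while vehicle replicate 5 lay among the lowest paclitaxel libraries. The vehicle mean was 29.2 ± 4.69 CPM (SD, n = 5), and paclitaxel differed from it by a log2 fold change of -0.21 (SE 0.12, 95% interval -0.45 to 0.03). It did not pass (edgeR unadjusted p = 0.0838, adjusted p = 0.80). It was -0.15 without paclitaxel replicate 3 (edgeR unadjusted p = 0.196). Over libraries left out in turn it ran from -0.14 without vehicle replicate 1 to -0.30 without vehicle replicate 5, and in the latter case the unadjusted p was 0.0107 (edgeR adjusted p = 0.887). Without paclitaxel replicate 2 it was 0.0258 (edgeR adjusted p = 0.599).

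Spry1 (chromosome 3, 37639947 to 37644599) stood at 10.5, 9.78, 11.4, 8.90 and 8.72 CPM in vehicle replicates 1 to 5 and 9.61, 7.58, 8.07, 12.8 and 7.34 CPM in paclitaxel replicates 1 to 5. Paclitaxel replicate 4 held the highest value of all 10 libraries, and paclitaxel replicates 2, 3 and 5 the 3 lowest. Its log2 fold change was -0.14 (SE 0.16; edgeR adjusted p = 0.897). It ran from -0.27 without paclitaxel replicate 4 to -0.07 without paclitaxel replicate 5. It was -0.08 without paclitaxel replicate 2 and -0.10 without paclitaxel replicate 3. Spry2 (chromosome 14, 105891947 to 105896819) was steadier across the paclitaxel libraries, at 28.6, 31.1, 26.7, 27.3 and 27.9 CPM in replicates 1 to 5. That spread of 5.93% was no wider than the 8.27% that counting gives. The vehicle libraries, at 25.3, 32.7, 30.4, 32.8 and 22.8 CPM, lay on both sides, and the groups differed by -0.01 on the log2 scale (SE 0.10, 95% interval -0.22 to 0.21; edgeR adjusted p = 0.995). Its sign turned in 7 of 21 other ways of running the comparison, to at most 0.06 when paclitaxel replicate 3 and vehicle replicate 4 were both left out. Leaving out paclitaxel replicate 3 alone put the log2 difference of Spry2 at 0.02.

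The 3 Sprouty genes were highest in different libraries. The library highest in Spry1 was paclitaxel replicate 4, that highest in Spry2 vehicle replicate 4, and that highest in Spry4 vehicle replicate 1.

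SPRED proteins hold the RAS-inactivating protein neurofibromin at the membrane. Spred1 (chromosome 2, 117121071 to 117182279) was the best measured member, with 746 to 1429 counts per library. It stood at 187, 172, 188, 192 and 183 CPM in vehicle replicates 1 to 5 and at 187, 176, 209, 204 and 191 CPM in paclitaxel replicates 1 to 5. Paclitaxel replicates 3 and 4 were above every vehicle library. The groups differed by a log2 fold change of 0.07 (SE 0.06, 95% interval -0.05 to 0.18; edgeR adjusted p = 0.848). In this fit the interval reaches from a fall of 3.35% to a rise of 13.7%. Once the dependence on base composition and length had been removed by loess, the log2 fold change was -0.006. Spred1 has the lowest GC content of the member transcripts, 41.8%. Without paclitaxel replicate 3, the library highest in Spred1, the fit with no loess adjustment gave 0.04 (edgeR unadjusted p = 0.479).

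Spred2 (chromosome 11, 19924442 to 20024026) held 43.9, 49.1, 44.9, 43.4 and 40 CPM in vehicle replicates 1 to 5. Paclitaxel replicates 1 to 5 held 44.8, 46.2, 34.2, 35.5 and 40.2 CPM, with replicates 3 and 4 below every vehicle library. For Spred2 the log2 difference came to -0.13 (SE 0.09, 95% interval -0.32 to 0.05; edgeR unadjusted p = 0.154, adjusted p = 0.819), and -0.07 without paclitaxel replicate 3. In paclitaxel replicates 3 and 4 the Spred genes thus differed from the vehicle mean in opposite directions, Spred1 by 0.18 and 0.14 and Spred2 by -0.37 and -0.31 in log2 CPM. Summed over the pair, paclitaxel libraries held 234 ± 8.04 CPM and vehicle libraries 229 ± 6.43 CPM (SD, n = 5 in both).

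**Figure D2:**
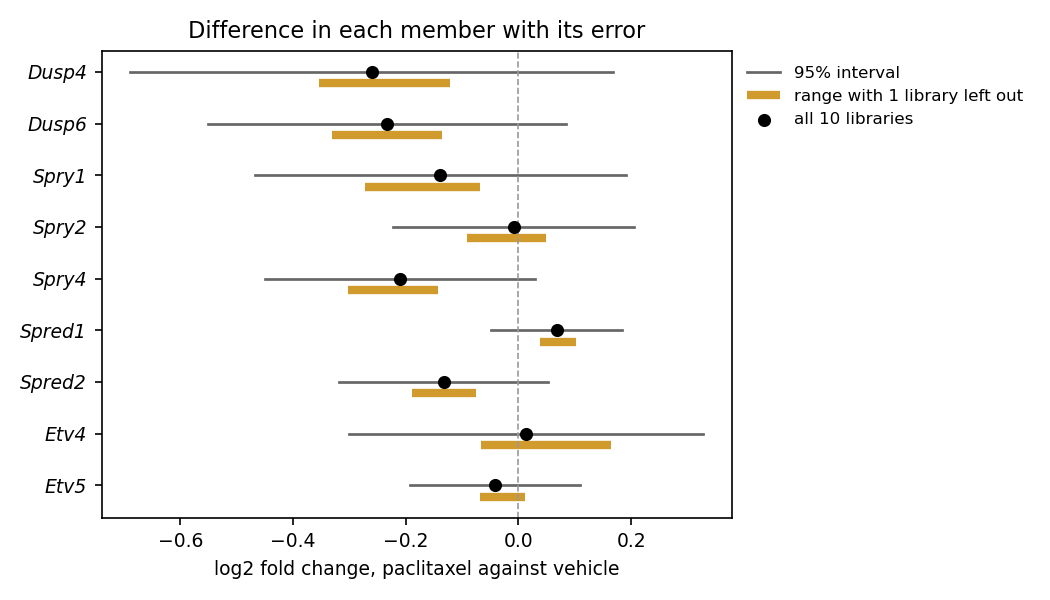
Log2 fold change of the 9 tested genes, paclitaxel against vehicle (black points), with the 95% interval (grey) and the range when each library is left out in turn (ochre). All 9 intervals include 0, and the ochre bars of Spry2, Etv4 and Etv5 cross it.

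The ETV factors showed the smallest differences between group means together with Spry2. Etv5 (chromosome 16, 22381313 to 22439570) is known from glia, astrocytes among them. The 7 astrocyte markers summed to between 5352 and 5797 CPM with paclitaxel and between 5049 and 5491 CPM with vehicle. By value 6 of the 7 were higher with paclitaxel and 1 was lower, with a median log2 fold change of 0.10. Of these markers 2 were higher at an unadjusted p under 0.05, beside 6.07% of all genes, and 0 passed the threshold. Their part in the Etv5 value was not tested. The level of Etv5 was 57.8, 59.6, 59.6, 64.5 and 59.1 CPM in vehicle replicates 1 to 5 and 63.3, 58.8, 49.7, 62.2 and 58.2 CPM in paclitaxel replicates 1 to 5. Only paclitaxel replicate 3 lay outside the vehicle range on the low side. Between groups the log2 difference was -0.04 (SE 0.07, 95% interval -0.19 to 0.11; edgeR adjusted p = 0.946), and 0.01 without that library. Vehicle libraries varied by 4.21% in Etv5, less than the 5.72% expected of counting at its mean count.

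Etv4 (chromosome 11, 101769747 to 101785310) was close in all vehicle libraries, at 12.3, 12.6, 13.9, 12.2 and 12 CPM in replicates 1 to 5. The paclitaxel libraries held 15.7, 14.4, 7.22, 12.6 and 13.4 CPM. Replicates 1 and 2 were above every vehicle library and replicate 3 far below, so the group's variation coefficient was 25.8%, beside 12.4% that counting alone gives at the mean count. The 5.87% of the vehicle libraries lay below that counting value. Between groups it differed by 0.01 on the log2 scale (SE 0.15, 95% interval -0.30 to 0.33; edgeR adjusted p = 0.995). It was 0.16 without paclitaxel replicate 3 and -0.07 without paclitaxel replicate 1.

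Paclitaxel replicate 3 was the lowest of all 10 libraries for 5 of the 9 tested members, Dusp6, Spry4, Spred2, Etv4 and Etv5, and the highest for Spred1. The median member stood 0.27 below the vehicle mean there in log2 CPM. Vehicle replicate 5 was next, at 0.16 below, with 9 of 9 members under the vehicle mean. The other 8 libraries lay between -0.05 and 0.08, and both groups were found on either side of 0. Vehicle replicate 4 was the highest library for 3 members (Dusp4, Spry2 and Etv5). Leaving out both low libraries, a choice made after the data were seen, gave 0 of 9 members past the threshold, 6 of 9 lower and a median of -0.12 (log2). The smallest p was then that of Spry4 (log2 fold change -0.25; edgeR unadjusted p = 0.0235, adjusted p = 0.991).

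**Figure D3:**
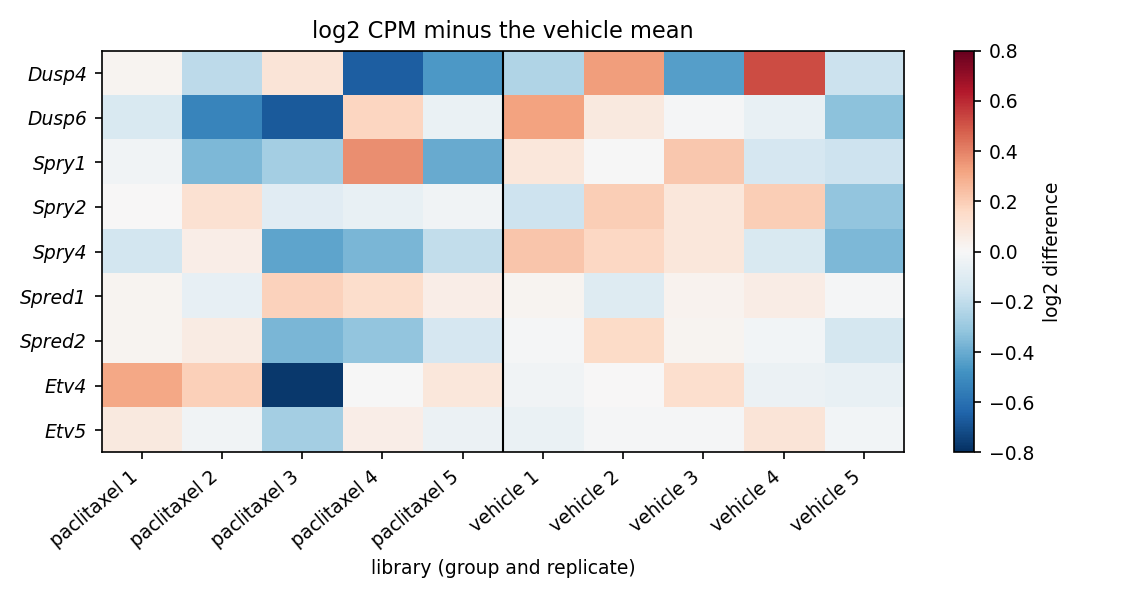
Log2 CPM minus the vehicle mean for the 9 tested genes (rows) in the 10 libraries (columns, paclitaxel left of the line and vehicle right), red for higher and blue for lower. Paclitaxel replicate 3 is the darkest blue column for Dusp6 and Etv4, and all 9 genes are below 0 in vehicle replicate 5.

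The same libraries were at the ends of other lists. Glucocorticoid response genes, a list of 8 that includes Sgk1, Zbtb16 and Fkbp5 and that was known from earlier results to vary in these libraries, summed to 1154 CPM in paclitaxel replicate 3 and 652 CPM in vehicle replicate 5, and to between 299 and 494 CPM in the other 8. All 8 of these genes were higher by value with paclitaxel, with a median log2 fold change of 0.50 and 0 past the threshold. Without paclitaxel replicate 3, all 8 were lower by value, with a median of -0.34 and again 0 past the threshold. Endothelial markers (7 genes) summed to 166 CPM in paclitaxel replicate 3 and 175 CPM in vehicle replicate 5, and to between 206 and 261 CPM in the other 8. Markers of pericytes and smooth muscle (6 genes) stood at 77.1 and 93.9 CPM in these libraries, against 98.8 to 121 CPM elsewhere. Blood genes stood at 62.2 CPM in paclitaxel replicate 3, with 97.1 to 276 CPM in the other 9 libraries. Meningeal and fibroblast markers reached 886 CPM in paclitaxel replicate 3 and 778 CPM in vehicle replicate 4, and were at most 477 CPM elsewhere. None of these lists separated the groups: the endothelial sum ranged from 166 to 261 CPM with paclitaxel and from 175 to 242 CPM with vehicle, and no endothelial marker was at 0. Their part in the members' values was not tested.

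**Figure D4:**
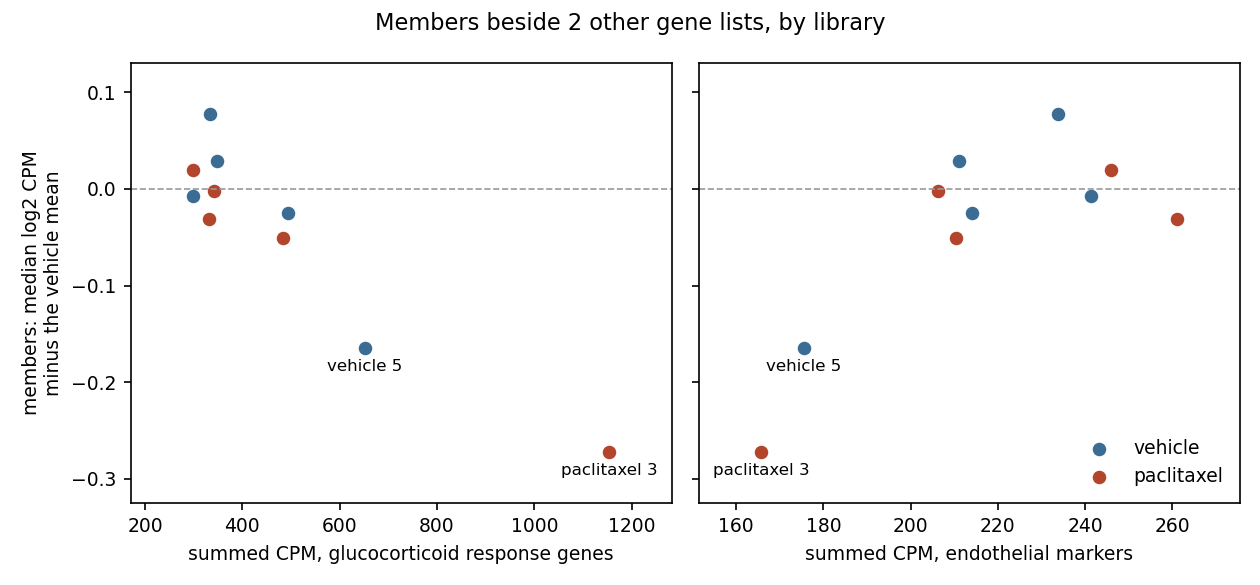
Each point is a library, blue for vehicle and red for paclitaxel. The median of the 9 tested genes (log2 CPM minus the vehicle mean) is plotted against the summed CPM of 8 glucocorticoid response genes (left) and of 7 endothelial markers (right). Paclitaxel replicate 3 and vehicle replicate 5 lie lowest, at the high end of the first list and the low end of the second.

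Genes whose level followed the members most closely were sought over all 10 libraries, after the mean of each group had been removed. Among 10314 other genes with at least 10 CPM, the highest Pearson correlations with the mean of the 9 tested members belonged to the kinase gene Nuak1 (0.939), the endothelial VEGF receptor gene Kdr (0.931), Man1c1 (0.924), the transcription factor gene Zfp608 (0.922) and the cadherin gene Cdh11 (0.918). These are the extremes of many comparisons over only 10 libraries that share depth and composition, and are a description. Without paclitaxel replicate 3 the correlations of these 5 genes lay between 0.869 and 0.894. The 9 libraries left had also served to choose the genes, and the ranking was not redone, so high values follow from the choice. In the treatment comparison these 5 genes differed by between -0.11 and 0.11 on the log2 scale.

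Upstream of the members, ligands, receptors and kinases of the pathway had list medians near 0. Of 22 ligand and receptor genes, 20 were tested, 14 were higher and 6 lower, with a median log2 fold change of 0.03 and 0 past the threshold. At an unadjusted p under 0.05 there were 2 of the 20, beside 6.07% of all genes, and 0 without paclitaxel replicate 3. Fgfr1, Fgfr2 and Fgfr3, the FGF receptors, had log2 fold changes of -0.04, 0.06 and 0.03 (SE 0.05, 0.14 and 0.14), and the sign of each turned under at least 1 alternative. Leaving out paclitaxel replicate 3 put Fgfr2 at 0.17 and Fgfr3 at -0.09. Pdgfra, the PDGF receptor that marks oligodendrocyte precursors, averaged 63.7 ± 4.10 CPM in paclitaxel libraries against 57.0 ± 4.35 CPM in vehicle libraries (SD, n = 5 in both), a log2 difference of 0.16 (SE 0.07; edgeR unadjusted p = 0.0397, adjusted p = 0.792). The 5 precursor markers, Pdgfra included, summed to between 403 and 420 CPM with paclitaxel and between 352 and 414 CPM with vehicle. Of these 5, 3 (Pdgfra, Ptprz1 and Vcan) were higher at an unadjusted p under 0.05, beside 6.07% of all genes. The other 2 were lower by value, and the list had a median of 0.13 and 0 past the adjusted threshold. Without paclitaxel replicate 3, all 5 were higher by value, 0 of them at an unadjusted p under 0.05, and the median was 0.11. Their part in the Pdgfra value was not tested. Pdgfrb, its counterpart on pericytes, averaged 19.0 ± 3.12 against 22.5 ± 0.725 CPM (SD, n = 5 in both), a log2 difference of -0.24 (SE 0.11; edgeR adjusted p = 0.792). Paclitaxel replicate 3 was lowest in Pdgfrb, at 14.0 CPM, and without it the log2 fold change was -0.15. Fgf1, an FGF that motor neurons express strongly, averaged 374 ± 21.1 against 355 ± 13.5 CPM (SD, n = 5 in both), a log2 difference of 0.07 (SE 0.05).

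The 30 genes of the cascade, from adaptors through RAS, RAF and MEK to ERK and the RSK kinases, were all tested and split evenly, 15 higher and 15 lower, with a median of 0.002. None passed, and 3 were at an unadjusted p under 0.05, beside 6.07% of all genes. Those were Hras, a RAS gene (-0.19, SE 0.07), the RAF scaffold gene Ksr1 (-0.24, SE 0.10, and -0.15 without paclitaxel replicate 3) and the FGF receptor adaptor gene Frs2 (0.14, SE 0.06), each with an edgeR adjusted p of at least 0.792. Frs2 was at 0.08 with the loess adjustment. In the cascade list, 1 of the 30 was at an unadjusted p under 0.05 without paclitaxel replicate 3, as were 648 of all genes. ERK1, encoded by Mapk3, averaged 140 ± 13.4 CPM in paclitaxel libraries against 142 ± 6.30 CPM in vehicle libraries (SD, n = 5 in both), a log2 difference of -0.02 (95% interval -0.16 to 0.11). mRNA levels of the kinases do not measure their phosphorylation, which was not assayed here.

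Relatives of the members had a median near 0. Of 14 other family and feedback genes, 11 were tested, with 6 higher and 5 lower, a median log2 fold change of 0.005 and 0 past the threshold. Spred3, the third Spred gene, was lower in 5 of 5 paclitaxel libraries than the vehicle mean (34.1 ± 3.41 against 38.6 ± 4.13 CPM, SD, n = 5 in both; log2 difference -0.18, SE 0.09; edgeR unadjusted p = 0.0594, adjusted p = 0.80). Dusp10, which acts on the stress kinases JNK and p38, was at 0.17 (SE 0.15), and Etv1, the third factor of the Etv4 and Etv5 group, at 0.10 (SE 0.08). Dusp10 ran from 0.10 without vehicle replicate 3 to 0.30 without vehicle replicate 5. Etv1 ran from 0.05 without paclitaxel replicate 5 to 0.17 without paclitaxel replicate 1, and was at 0.02 with the loess adjustment for base composition. The list median was 0.05 without paclitaxel replicate 3. In that fit 2 of the 11 were at an unadjusted p under 0.05, as were 648 of all genes. With all libraries there were 0 of the 11, beside 6.07% of all genes. Whether the members and their relatives differed was not tested.

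Nuclear factors of the pathway, 15 genes with the ETS factors, serum response factor and its coactivators, and Cic with its partners, had a median of 0.10, with 9 higher and 6 lower and 0 past the threshold. At an unadjusted p under 0.05 there were 2 of the 15, beside 6.07% of all genes. Leaving out paclitaxel replicate 3 gave 3 of the 15, and 648 of all genes. Ets2, an ETS factor that ERK phosphorylates, averaged 55.7 ± 2.45 CPM in paclitaxel libraries against 48.6 ± 3.18 CPM in vehicle libraries (SD, n = 5 in both), a log2 difference of 0.20 (SE 0.07). All 5 paclitaxel libraries, at 53.4 to 59.2 CPM, lay above the highest vehicle library, replicate 3 at 53.2 CPM, by a narrow margin. It was the only 1 of the 15 genes whose groups did not overlap, where 1.09% of all tested genes had groups that did not. Ets2 did not pass (edgeR unadjusted p = 0.0103, adjusted p = 0.792). Mkl1, a coactivator of serum response factor, was at -0.21 (SE 0.09) and Elk4, its ETS partner, at 0.18 (SE 0.12), or 0.28 without vehicle replicate 1. Cic averaged 174 ± 10.3 against 184 ± 12.3 CPM (SD, n = 5 in both), a log2 difference of -0.08 (SE 0.06) that became -0.01 with the loess adjustment for base composition.

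Other genes that ERK is known to induce had a median close to that of the members. Of 20 such genes, 18 were tested, with a median log2 fold change of -0.16 and 0 past the threshold. By value 14 were lower and 4 higher, where 50.9% of all genes tested were lower. Without paclitaxel replicate 3, 12 of the 18 were lower and the median was -0.08. At an unadjusted p under 0.05 there was 1 of the 18, Fos, beside 6.07% of all genes. Leaving out that library also gave 1 of the 18, and 648 of all genes. The immediate early gene Fos held 29.6, 23.8, 18.7, 15.2 and 10.8 CPM in vehicle replicates 1 to 5 and 15, 9.80, 12.1, 7.91 and 7.34 CPM in paclitaxel replicates 1 to 5. All 5 paclitaxel libraries were below the vehicle mean, while vehicle replicate 5 lay within the paclitaxel range. Its log2 fold change of -0.90 (SE 0.31) was the largest of the list and did not pass (edgeR unadjusted p = 0.0177, adjusted p = 0.792). Over libraries left out in turn it ran from -0.70 without vehicle replicate 1 to -1.08 without vehicle replicate 5. In the latter case the edgeR unadjusted p was 0.000445 and the adjusted p 0.887. Phlda1 and the cyclin gene Ccnd1, slower targets of the pathway, were at -0.23 (SE 0.13) and -0.13 (SE 0.10). In both, paclitaxel replicate 3 was the lowest library, at 9.55 and 36.3 CPM, and without it they stood at -0.10 and -0.03.

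**Figure D5:**
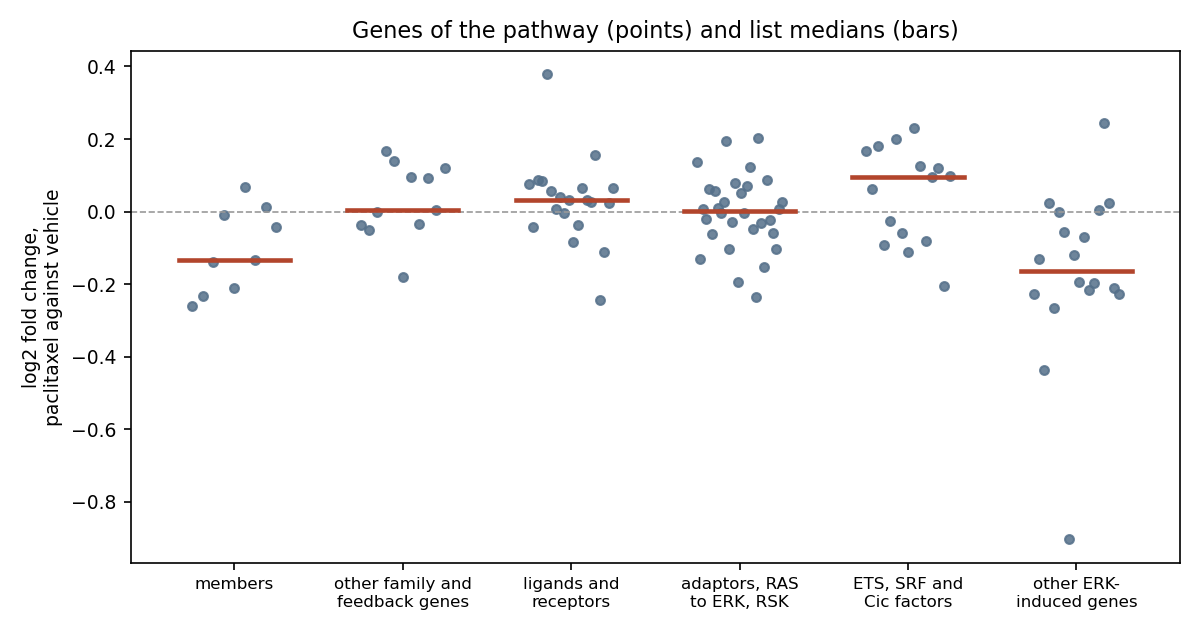
Log2 fold change, paclitaxel against vehicle, of each tested gene (points) in the members and 5 other lists of the pathway, with the median of each list as a bar. Medians are -0.13 for the members, -0.16 for other ERK-induced genes and between 0.002 and 0.10 for the other 4 lists, and the lowest point is Fos at -0.90.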

How the data were processed

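RNA of lumbar cord was sequenced from 10 samples, and the authors deposited expected counts per gene that carry no depth scaling. The tools named per the submitters' processing notes are STAR and RSEM, along with edgeR 4.2.0, on build mm10. Sources used here do not state the annotation release, strand setting or read filters. Values that were not whole (5.04%) were rounded. filterByExpr (count of 10, total of 15) chose the genes, TMM scaled the libraries, and edgeR 4.0.16 in R 4.3.3 compared treatment alone with its robust quasi-likelihood test, two-sided, at an adjusted p of 0.05. Each SE is the log2 fold change over the root of F. Log2 CPM adds a prior count of 2.

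Members and lists were chosen with earlier results of these data known. All members were named, up to 3 genes of lowest p in each other list, and Cic, Mapk3 and Fgfr1 to Fgfr3 in any case. Some genes that this rule or the marker lists hold are not reported here. Spry3, in the list of relatives, was not analysed here. Gene coordinates and promoters are RefSeq on GRCm38, and lengths and base composition come from GENCODE M21 (99.7% of tested genes). The fit was tested on simulated data. Libraries within a group differed by more than sampling noise (chi-square over its degrees of freedom was 1.59 at the lowest and 6.55 at the highest), and all were kept as replicates. Other settings covered scaling (DESeq2 size factors, upper quartile, totals), filters, DESeq2 1.42.0, limma-voom 3.58.1, a replicate block, a loess adjustment for base composition and length, and libraries left out.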

Additional observations from a re-analysis of the deposited data

Results flagged for a closer look

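In 60 groups of 5 libraries (30 tested genes, members and genes of the other pathway lists, in each treatment), a library was marked where its gap to the nearest other library exceeded 0.71 of the whole range in log2 CPM. Chance marks about 1 in 20 such groups, and 2 were marked. Etv5 was at 64.5 CPM in vehicle replicate 4, against 57.8 to 59.6 CPM in the other vehicle libraries. Cic was at 162 CPM in vehicle replicate 1, against 187 to 191 CPM in the other vehicle libraries, and the same level of 162 CPM occurred in paclitaxel replicate 1.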

How the results depend on the processing

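In all 21 other settings, 1 of which (paclitaxel 3 and vehicle 5 left out) was chosen after seeing the data, 0 members passed, and the median of the members stayed below 0, from -0.17 without vehicle replicate 5 to -0.07 without paclitaxel replicate 5. Genes passing over the whole table numbered 0 except in DESeq2 (1, Klf4) and in the fit with a replicate block (1, Fos, log2 fold change -0.89, adjusted p = 0.0189), and leaving out each library in turn gave 0 to 0. No label says that the replicate numbers pair the libraries. Same-numbered libraries correlated between -0.10 and 0.14 in their deviations. Among the 5 libraries of the other group, 5 of 10 were most like their own number. Whether the numbers mark pairs was not tested. With the block 0 members passed. Signs turned in genes near 0. With limma-voom Spry2 was at 0.017 and Etv4 at -0.026. Without both paclitaxel 3 and vehicle 4, Spry2 was at 0.065, Etv5 at 0.035, Fgfr3 at -0.082 and Mapk3 at 0.010. Without both paclitaxel 3 and vehicle 5, Etv5 was at 0.0042, Fgfr3 at -0.037 and Mapk3 at 0.012. With the loess adjustment Spred1 was at -0.0061, Fgfr1 at 0.0069 and Mapk3 at 0.038. With each library left out, Spry2 ran from -0.092 to 0.049, Etv4 from -0.066 to 0.16, Etv5 from -0.068 to 0.012, Fgfr2 from -0.013 to 0.17, Fgfr3 from -0.089 to 0.12 and Mapk3 from -0.063 to 0.022. The glucocorticoid list, chosen for this after seeing the data, had a median of -0.34 without paclitaxel replicate 3, against 0.50 with it. The cause was not tested. Depth limits Dusp5 (at most 8 counts in a library) and, less so, Dusp4 (at most 49) and Spry1 (at most 68).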
